A study of Mus musculus with 113 samples.

Results

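The Hes and Hey genes encode basic helix-loop-helix repressors, and 8 of them were followed through neural differentiation of mouse embryonic stem cells: *Hes1*, *Hes3*, *Hes5*, *Hes6*, *Hes7*, *Hey1*, *Hey2* and *Heyl*. They were chosen by gene symbol, as 8 of the 23739 symbols found across the deposited RNA-seq gene tables. The table of SFEB cell populations (embryoid body-like aggregates floating in medium without serum) held 6 of them, without *Hes7* and *Heyl*, and the table of adherent monoculture held 5, without *Hey2* as well. The table of E14 cells held all 8, and the table of single cells held 4, *Hes1*, *Hes5*, *Hes6* and *Hey1*.

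The SFEB and adherent samples came from the R1 embryonic stem cell line under neural induction for 0 to 216 h, with 1 sample at each time point of a series. The 22 SFEB populations comprised 14 of a first series (0 to 142 h) and 8 of a second one, named CP (0 to 216 h), which was collected in parallel with 64 single cells, 8 at each of 8 time points, while the adherent series comprised 15 samples. The 12 E14 samples were wild type (WT) or *Fyn* knockout (KO) cells at day 0 or day 4 of induction, with 3 replicates a group, and the KO cells were 1 clone with a deletion made by Cas9. The R1 cells grew on feeder cells until 1 passage without them, and both protocols replated the cells on coated dishes on day 6.

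When a neighbouring cell presents a ligand, the Notch receptor is cut, and its intracellular part joins the DNA-binding factor Rbpj to switch on target genes, of which *Hes1*, *Hes5* and *Hey1* are the best known in the nervous system. The Hes and Hey proteins then repress the proneural genes, so that cells stay progenitors, and the loss of several of them together is known to let progenitors turn into neurons too early. *Hes3* is known from the early neuroepithelium, *Hes7* from the segmentation clock of the presomitic mesoderm, and *Hey2* and *Heyl* from heart and vessels. *Hes6* is the odd member: it opposes Hes1 protein and accompanies neuronal differentiation. In embryonic stem cells, *Hes1* is also known to be expressed without Notch, under LIF and BMP signalling.

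The promoter of *Hes5* is shown first, since *Hes5* had the largest rise of the 5 tested genes in both cultures, and that of *Hey2* beside it, since *Hey2* stayed low in both tables that listed it. Each sequence is the 250 bases before the transcription start in the RefSeq promoter table (build GRCm38.p6), and capitals mark TGGGAA, the core of the Rbpj site, on either strand (TTCCCA where it lies on the other strand). The *Hes5* window is chr4:154960673-154960922 on the plus strand and the *Hey2* window is chr10:30842784-30843033 on the minus strand.

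Hes5: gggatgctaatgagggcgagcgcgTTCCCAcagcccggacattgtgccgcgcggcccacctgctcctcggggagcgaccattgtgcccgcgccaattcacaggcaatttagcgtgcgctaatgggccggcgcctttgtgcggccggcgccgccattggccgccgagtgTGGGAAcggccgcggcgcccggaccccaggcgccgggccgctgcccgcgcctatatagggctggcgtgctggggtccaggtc

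Hey2: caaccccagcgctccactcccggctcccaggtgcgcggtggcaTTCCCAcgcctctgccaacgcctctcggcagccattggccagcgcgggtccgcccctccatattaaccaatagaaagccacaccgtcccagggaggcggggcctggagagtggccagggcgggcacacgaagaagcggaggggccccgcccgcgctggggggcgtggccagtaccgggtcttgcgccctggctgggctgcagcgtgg

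The *Hes5* window held 2 matches, whose far ends lay 226 and 82 bases before the start, and the *Hey2* window held 1, whose far end lay 207 bases before it. Of 32851 RefSeq promoter windows of this length, 21.6% held at least 1 match and 2.77% held 2 or more, so a single match is common. The *Hes7* window held 1 match and neither of the 2 *Hes6* windows held any. Sites that Hes proteins are known to bind were searched as well, on both strands: the N-box CACNAG was in 36.7% of all windows and the class C site CACGNG in 23.5%. Neither was in the *Hes5* or *Hey2* window, whereas 1 *Hes6* window held 1 N-box, the other held 1 class C site, and the *Hes7* window held 1 N-box and 2 class C sites, 1 of which overlapped the N-box. These matches describe the letters of the windows only.

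In the gene annotation of the mm9 build (GENCODE M1), *Hes5* spans 154335032 to 154336480 on chromosome 4, with *Hes3* on the same chromosome at 151660081 to 151665771 and *Heyl* at 122910799 to 122927118. *Hes1* lies at 30064470 to 30067882 on chromosome 16, *Hes6* at 93308060 to 93310615 on chromosome 1, and *Hes7* at 68933906 to 68937557 on chromosome 11. *Hey1* lies at 8663362 to 8667039 on chromosome 3 and *Hey2* at 30552165 to 30562607 on chromosome 10. Expression values are FPKM over all exons of a gene, a level per length.

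Between early and late samples, *Hes5* had the largest rise of the 5 tested genes in both cultures, on the log2(FPKM + 1) scale. In the first SFEB series its level was 0.535 FPKM at 0 h and stayed at or below 2.16 FPKM until 80 h, then read 4.1 at 92 h, 15.4 at 103 h, 58.1 at 126 h and 75.0 at 142 h. In the CP series it was 4.94 FPKM at 106 h, 29.6 at 144 h and 39.1 at 216 h, after 0.562 to 1.33 FPKM at the 5 earlier times. In adherent culture it passed 5 FPKM already at 68.5 h (6.73) and reached 88.1 FPKM at 140.5 h, from 0.0818 to 0.190 FPKM in the first 3 samples. The late and early levels did not overlap in either culture: the 6 SFEB samples at 100 h or later held 4.94 to 75.0 FPKM against 0.535 to 2.16 FPKM in the 6 samples up to 10 h, and the 5 late adherent samples held 17 to 88.1 FPKM.

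On the log2(FPKM + 1) scale, the mean of *Hes5* in late samples exceeded that in early ones by 3.95 in SFEB culture and by 5.39 in adherent culture. Only 10 of 13363 tested genes in SFEB culture and 2 of 12879 in adherent culture rose at least as far, both counts with *Hes5* included. A late mean at least 4-fold above the early mean (log2 of 2) was reached by 2.64% of genes in SFEB culture, where *Hes5* was past it and *Hes3* just under it, and by 3.77% in adherent culture, where *Hes5* and *Hey1* were past it and *Hes3* again just under. These limits hold for FPKM + 1: with a pseudocount of 0.1, *Hes3* differed by 3.46 in SFEB and by 2.39 in adherent culture. In a smooth curve over time (limma, natural spline with an F test), all 5 family members with enough expression passed an adjusted p of 0.05 in both cultures, but so did 87.9% of all tested genes in SFEB culture and 70.7% in adherent culture, so passing sets the family apart in neither. *Hes5* reached the 1 FPKM needed for the test no sooner than 41.5 h in adherent culture, and only at 2 h and from 80 h on in SFEB culture, so its place in these rankings is partly built into that limit and no p is given for it. Of the genes called in adherent culture 5384 were higher and 3717 lower late, or 4467 and 4643 after quantile normalization between samples. Under it all 5 genes remained higher, and those other than *Hes5* remained called. With 1 sample at each time point, the scatter about the curve stands in for replicate error. Here, as in all bulk samples below, a higher level can mean more cells that express a gene or more RNA in each, which cannot be told apart.

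*Hes3* rose earlier than *Hes5* in the first SFEB series and then came down. Its level there was at most 0.294 FPKM up to 8 h, 1.91 at 22 h, 1.90 at 34 h and 0.803 at 42.5 h. It then read 4.51 FPKM at 80 h, 9.60 at 92 h, 9.35 at 103 h and 12.4 at 126 h, and had dropped to 5.48 FPKM at 142 h. In adherent culture *Hes3* reached a higher level, going from 0.901 FPKM at 53.5 h to 11.9 at 80.5 h, 19.9 at 92.5 h and 24.0 at 101.5 h, followed by 14.7 at 125.5 h and 13.1 at 140.5 h. *Hes3* was thus past its highest level while *Hes5* was still climbing. In the CP series *Hes3* stayed between 0.965 and 3.97 FPKM with no such peak, and its level at 9 h (3.95 FPKM) was as high as at 106 h (3.97). Late minus early differences were 1.95 in SFEB culture (adjusted p 0.00018) and 1.96 in adherent culture (adjusted p 0.0031), both in limma. The SFEB difference was 3.09 in the first series alone.

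*Hey1* was still rising after *Hes3* had passed its highest level in the first SFEB series and in adherent culture. In the first SFEB series it read 2.53 FPKM at 92 h, 5.05 at 103 h, 8.39 at 126 h and 12.2 at 142 h, and in the CP series 3.43 at 106 h, 11.8 at 144 h and 24.0 at 216 h. In adherent culture it read 0.798 to 1.01 FPKM in the first 3 samples and 0.923 FPKM at 53.5 h. It then read 2.01 FPKM at 68.5 h, when *Hes3* had also begun to rise (4.02 FPKM), 4.05 at 101.5 h and 9.84 at 216 h. Its late minus early difference was 1.49 in SFEB (adjusted p 7.7e-07, and 0.93 in the first series alone) and 2.13 in adherent culture (adjusted p 1.2e-09). Of all pairs among the 5 genes, *Hes5* and *Hey1* had the most similar profiles, with a Pearson r of log2(FPKM + 1) of 0.833 over the 22 SFEB samples and 0.935 over the 15 adherent ones. These correlations describe samples that share 1 time axis.

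*Hes6* was well expressed from the start and had a wave of its own. In adherent culture it went from 10.9 FPKM at 0 h to 52.6 at 68.5 h, down to 22.8 at 92.5 h and back to 53.2 at 216 h. The first SFEB series showed the same shape, with 30.7 FPKM at 68 h, 14.2 at 103 h and 50.1 at 142 h. The CP series read 22.7 FPKM at both 60 and 84 h, 17.6 at 106 h, 30.3 at 144 h and 53.8 at 216 h. In adherent culture the low of *Hes6* at 92.5 h came while *Hes3* was high, at 19.9 FPKM. Late minus early differences were 1.25 in SFEB (adjusted p 9.9e-07) and 1.63 in adherent culture (adjusted p 1.6e-05).

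*Hes1* had the smallest late minus early difference of the 5 genes in both cultures, and its net direction in SFEB culture depended on which samples were used. After a low of 5.78 FPKM at 9 h (CP series) or 8.09 at 22 h (first series), it came back to 15.3 to 28.4 FPKM in the 6 samples at 100 h or later, which overlapped the early range of 5.78 to 46.2 FPKM. The late minus early difference was 0.22 (adjusted p 0.0068), or -0.39 in the first series alone and 0.75 without the 1 h and 2 h samples. In adherent culture the early and late levels did not overlap, at 6.01 to 8.91 FPKM against 17.1 to 23.3 FPKM, a difference of 1.4 (adjusted p 6.5e-06). *Hey2* stayed at or below 1.11 FPKM in all 22 SFEB populations and did not reach the level for the test, and with no filter its late minus early difference was 0.15 (limma adjusted p 0.0077).

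**Figure D1:**
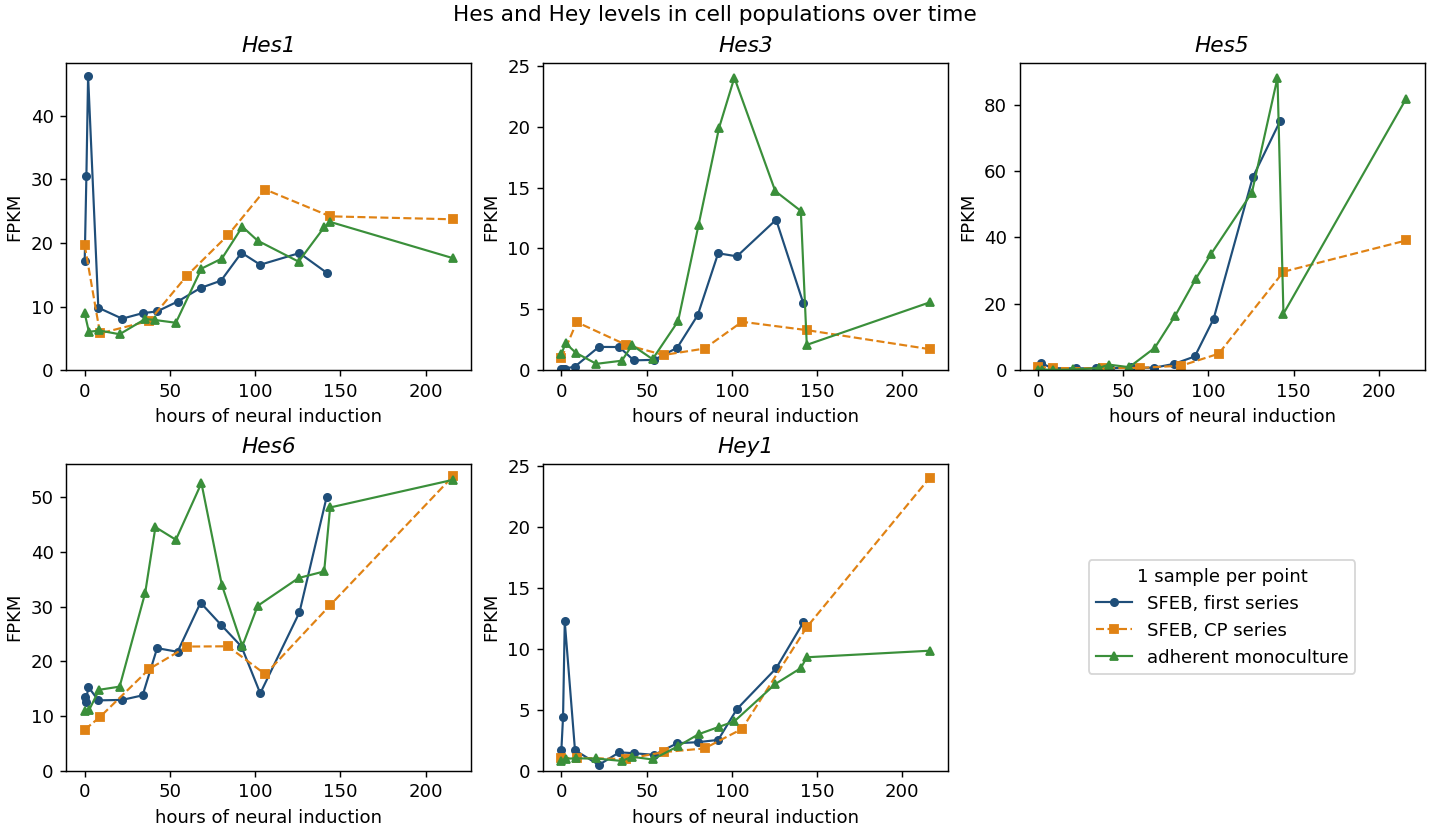
Levels of 5 Hes and Hey genes (FPKM) against hours of neural induction in the first SFEB series (circles), the CP series (squares) and adherent monoculture (triangles), with 1 sample per point and no error bars. *Hes5* is highest late (75.0 FPKM at 142 h in the first SFEB series and 88.1 at 140.5 h in adherent culture), *Hes3* peaks at 101.5 h in adherent culture, *Hes6* has a high at 68.5 h and a low at 92.5 h there, and *Hes1* and *Hey1* each have an early SFEB peak at 2 h.

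The SFEB series differed in level, and for *Hes3* in shape. For times close together, the median absolute difference between the series over all tested genes was 0.146 to 0.271 on the log2(FPKM + 1) scale. At 0 h in both series *Hes3* already differed by 0.89 and *Hes6* by -0.78, CP minus first. Later *Hes3* differed in both directions, with the CP series higher by 1.93 at 9 h against 8 h and lower by 0.99 at 84 h against 80 h and by 1.06 at 106 h against 103 h. *Hes5* was lower in the CP series by 1.47 at 106 h against 103 h and by 1.31 at 144 h against 142 h. *Hes1* was lower in the CP series by 0.67 at 9 h against 8 h, and then higher by 0.56 at 84 h, 0.74 at 106 h and 0.63 at 144 h, while *Hes6* was lower by 0.71 at 144 h. The 0 h pair shows gaps with no difference in time. The other pairs differ by 1 to 4 h, and the values carry a batch correction, whose part cannot be told apart from that of the culture.

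The earliest event of the family was a pulse in the first SFEB series. *Hey1* read 1.67 FPKM at 0 h, 4.42 at 1 h, 12.2 at 2 h and 1.68 at 8 h, so that its 2 h level was as high as its level at 142 h. *Hes1* read 17.2, 30.5, 46.2 and 9.81 FPKM at the same times, and the 2 h value was its highest in any SFEB or adherent sample. *Hes5* read 0.535, 0.600, 2.16 and 0.595 FPKM, a small move at a low level, and *Hes6* stayed between 12.6 and 15.4 FPKM.

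From 0 to 2 h, *Hey1* went up 4.96-fold on FPKM + 1, *Hes1* 2.60-fold and *Hes5* 2.06-fold. These were 3 of the 5 family members tested, against 2.23% of all 13363 genes that were at least 2-fold higher. Only 5 genes, *Hey1* among them, rose as far as *Hey1*, and 59 rose as far as *Hes1*. At 1 h *Hey1* was already 2.03-fold higher, a size reached by 0.269% of genes, and *Hes1* was 1.73-fold higher. From 2 to 8 h both dropped, *Hey1* to 0.203 and *Hes1* to 0.229 of the 2 h level on FPKM + 1, where 3.05% of genes were at least 2-fold lower. Each time is 1 sample, so these folds have no replicate check and no test.

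Other genes of the Notch pathway were mixed during the pulse. Of 29 listed receptors, ligands, modifiers, processing enzymes and nuclear partners, 28 were tested, and at 2 h against 0 h 1 was at least 2-fold higher and 4 were at least 2-fold lower (2.23% and 1.86% of all genes). The ligand *Dll1* was higher, at 3.02 against 0.901 FPKM, whereas the receptor *Notch3* was lower, at 8.81 against 29.2 FPKM, as were *Notch2*, the ligand *Jag2* and *Mib1*, a ubiquitin ligase that acts on ligands. The median over the 28 genes was -0.27. From 2 to 8 h, 3 of the 28 were at least 2-fold lower, against 3.05% of all genes. The Notch target *Nrarp* went from 5.82 to 1.52 FPKM, *Dll1* from 3.02 to 0.998 and the ligand *Jag1* from 14.2 to 6.18. The 2 that were at least 2-fold higher were *Notch2* and *Mib1*, which came back up, and the share of all genes that far up is not given. The Id genes, helix-loop-helix partners that BMP signalling is known to switch on, included *Id3* at 105 against 45.3 FPKM and *Id4* at 7.78 against 3.13 FPKM, 2 of 6 listed Id and BMP genes past 2-fold. By 8 h *Id3* was at 30.0 FPKM and *Id4* at 2.43 FPKM. The summed level of 6 of 6 fibroblast markers, none of them at 0, was 736 FPKM at 0 h, 667 at 1 h, 507 at 2 h and 306 at 8 h, a steady decline with no peak at 2 h. The 2 h library stood apart, with the highest summed FPKM of all 22 SFEB samples, 1.31 times that at 0 h. Pluripotency markers (5 of 5 listed), summed to 1007, 1098, 1300 and 1030 FPKM at the 4 times, and neuron markers (3 in this table), summed to 165, 181, 251 and 189 FPKM, were highest at 2 h as well, and the part of these lists in the pulse was not tested. With every sample scaled to the same summed FPKM, the rise from 0 to 2 h was 3.97-fold for *Hey1*, 2.00-fold for *Hes1* and 1.77-fold for *Hes5*, where the median of all genes moved from -0.07 to -0.37 on the log2 scale. After quantile normalization the rises were 6.13-fold, 2.36-fold and 2.46-fold.

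The pulse was seen in 1 series and could not be looked for in another at the same hours. The CP series has no sample between 0 h and 9 h, and its values at 9 h were 5.78 FPKM for *Hes1* and 1.06 FPKM for *Hey1*. The adherent culture was sampled at 2.5 h, where *Hes1* read 6.01 FPKM against 8.91 at 0 h and *Hey1* 0.986 against 0.798, and none of the 5 family members was 2-fold higher, against 2.52% of genes. The hours and the culture differ between these samples.

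**Figure D2:**
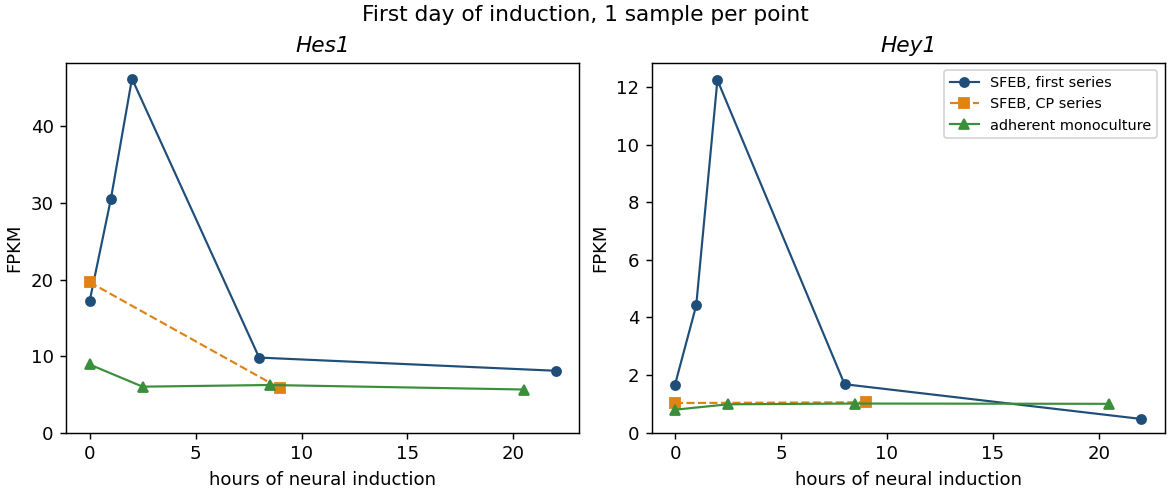
*Hes1* and *Hey1* levels (FPKM) against hours of neural induction over the first day, 1 sample per point, for the first SFEB series (circles), the CP series (squares) and adherent monoculture (triangles). In the first SFEB series both genes are highest at 2 h (46.2 and 12.2 FPKM) and back at 9.81 and 1.68 FPKM by 8 h, while the adherent sample at 2.5 h shows no rise in *Hes1*.

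A second abrupt step came in adherent culture around day 6, the day of replating. Between 140.5 h and 144 h *Hes5* went from 88.1 to 17 FPKM and *Hes3* from 13.1 to 2.08 FPKM, differences of -2.31 and -2.19 on the log2(FPKM + 1) scale. Of 12879 tested genes, 4 dropped at least as far as *Hes5* and 7 at least as far as *Hes3*, these included, and 0.784% were at least 2-fold lower. The other 3 family members did not share the drop: *Hes1* read 22.5 and 23.3 FPKM, *Hes6* 36.4 and 48.1, and *Hey1* 8.41 and 9.30. By 216 h *Hes5* was back at 81.8 FPKM and *Hes3* at 5.56 FPKM, rises of 2.20 and 1.09, where 3.23% of genes were at least 2-fold higher. None of the 29 Notch pathway genes moved 2-fold between 140.5 and 144 h, while *Id1* (22.8 to 56.9 FPKM) and *Id3* (39.0 to 112 FPKM) went up more than 2-fold, as did 3.91% of genes. The summed neural progenitor markers were 347 and 374 FPKM at the 2 times, the summed neuron markers 473 and 348 FPKM, and the summed pluripotency markers 196 and 123 FPKM. The 3 listed mesoderm markers in this table, none at 0 in any of the 3 samples, summed to 1.58 FPKM at 140.5 h, 24.7 at 144 h and 12.3 at 216 h, after 0.945 to 2.07 FPKM at all earlier times, and their part in the step was not tested. The labels give no second sample at 144 h, so 1 library carries the step, and the curve fit without it gave *Hes5* a late minus early difference of 5.75 and *Hes3* one of 2.40.

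Most listed genes of the Notch pathway were higher late in both cultures. Of the 29 listed Notch genes, 22 of 28 tested were called higher and 4 lower in SFEB culture, with a median late minus early difference of 0.56, and 22 of 29 were called higher and 3 lower in adherent culture, with a median of 0.74. Marker lists of cell types moved over the same hours: in SFEB culture fibroblast markers were called lower in 6 of 6 tested (median -3.92), pluripotency markers lower in 5 of 5 (-3.21), neural progenitor markers higher in 4 of 5 (2.48) and mesoderm markers higher in 3 of 3 (1.05). In adherent culture fibroblast markers were called lower in 5 of 6 (-2.16), pluripotency markers lower in 5 of 5 (-2.90) and neural progenitor markers higher in 4 of 5 (1.79). Of 3 neuron markers tested in each culture, 2 were called higher and 1 lower (medians 1.65 in SFEB and 0.75 in adherent culture). Endothelial markers were called lower in 2 of 3 and higher in 1 in SFEB culture (-1.16), and lower in 2 of 2 in adherent culture (-1.81). The part of these lists in the late levels of the family and of the pathway was not tested. The medians over all tested genes were 0.064 and 0.13, 47.8% and 41.8% of all genes were called higher, and 40.1% and 28.9% lower. *Nrarp*, itself a Notch target that damps the pathway, rose by 3.10 and 4.19, the ligand *Dll1* by 2.87 and 2.68, and *Lfng*, a glycosyltransferase that tunes the receptors, by 2.64 and 2.27. *Rbpj* fell, by 1.06 and by 0.92, and so did *Notch4*, by 1.35 and by 1.47. *Neurog2*, a proneural gene of the kind that the family is known to repress, rose by 2.24 and 2.07, in the same bulk samples as the repressors. Of 6 listed proneural genes 5 were tested in each culture, with 4 called higher and 1 lower in SFEB and 5 higher in adherent culture.

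Genes with the profile most like each family member were sought over the 22 SFEB samples by Pearson r of log2(FPKM + 1), with the value over the 15 adherent samples as a second look. For *Hes5* they were *Pard3b* (r 0.985 and 0.918), *Abcd2* (0.977 and 0.909) and *Gm1568* (0.977 and 0.971), which kept a high r in the other culture. For *Hes6* they were *Rnd2*, *Rem2* and the Notch ligand *Dll3*, and of these *Dll3* kept its r (0.904 and 0.917) while *Rnd2* did not (0.913 and 0.488). For *Hey1* they were *Ager* (0.932 and 0.922), *Sepw1* (0.931 and 0.975) and *Zfp672* (0.929 and 0.971). For *Hes3* the best were *Cdc123*, *Cenpn* and *Cep78*, at 0.884, 0.863 and 0.851 in SFEB culture and 0.750, 0.517 and 0.589 in adherent culture. For *Hes1* they were *Efhd2* (0.871 and 0.807), *Col9a3* (0.870 and 0.793) and *1810027O10Rik* (0.861 and 0.0038), the last of which had no such likeness in adherent culture. Each r is a description over samples that share a time axis.

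In E14 cells the knockout was visible in its target. *Fyn* read 3.21, 2.74 and 4.00 FPKM in WT cells at day 0 and 9.44, 4.54 and 6.76 at day 4, against 0.598, 0.598 and 1.10 in KO cells at day 0 and 1.19, 1.13 and 1.58 at day 4, with no overlap between genotypes on either day. Of the 8 family members, 3 had at least 1 FPKM in at least 3 of the 12 samples and were tested, *Hes1*, *Hes6* and *Hey1*. *Hey1* passed only through its day 4 samples, so its difference between days was partly built into that limit and is not counted among the calls below.

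*Hes1* fell from day 0 to day 4 in both genotypes. In WT cells its level was 39.5, 52.2 and 36.3 FPKM at day 0 (42.7 ± 8.41, SD, n = 3) and 22.9, 21.7 and 18.1 FPKM at day 4 (20.9 ± 2.46). In KO cells it was 38.9, 43.1 and 18.9 FPKM at day 0 (33.6 ± 13) and 9.77, 15.6 and 16.1 FPKM at day 4 (13.8 ± 3.51). The days did not overlap in either genotype, although KO replicate 3 at day 0 stood close to the day 4 samples. How many of all genes separate in this way was not counted, here or in any other comparison. The difference was -0.98 in WT cells (SE 0.29, limma adjusted p 0.026) and -1.17 in KO cells (SE 0.29, limma adjusted p 0.016). Pluripotency markers (5 of 5 listed) were lower at day 4 too, with summed levels of 1588 to 1817 FPKM at day 0 and 402 to 720 at day 4 in WT cells and of 1444 to 1514 and 508 to 625.3 FPKM in KO cells. Summed neuron markers (4 listed, 1 of them at 0 in each day 0 sample) were 24.0 to 86.0 FPKM in WT and 121 to 203 FPKM in KO cells at day 0, and 53.6 to 96.9 and 47.4 to 63.2 FPKM at day 4. The part of these lists in the differences of *Hes1*, *Hes6* and *Hey1* was not tested.

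*Hes6* values, in contrast, lay higher at day 4. In WT cells it read 7.24, 9.01 and 4.77 FPKM at day 0 and 12.1, 11.1 and 16.5 at day 4, and in KO cells 2.37, 3.87 and 5.97 FPKM at day 0 and 11.9, 9.14 and 16 at day 4. The days did not overlap in either genotype. The KO difference of 1.43 (SE 0.30, limma adjusted p 0.0078) passed the threshold and the WT difference of 0.85 (SE 0.30, limma adjusted p 0.055) did not, but the difference between them, 0.58 (SE 0.42), did not pass either (limma adjusted p for the interaction 0.997).

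*Hey1* was low and read higher at day 4, from 0.475, 0.267 and 0.397 FPKM to 1.80, 0.875 and 1.11 FPKM in WT cells and from 0.345, 0.268 and 0.502 FPKM to 0.959, 1.28 and 1.66 FPKM in KO cells. The difference was 0.70 in WT and 0.74 in KO cells, or 0.40 and 0.37 after quantile normalization, given as a description with no test. Of *Hes1* and *Hes6*, 1 was called in WT cells, where 25.8% of 12257 genes were called, and both in KO cells, where 19.3% were. The *Hes1* calls lay close to the threshold. They were lost without WT day 0 replicate 2 or WT day 4 replicate 2 or 3 (limma adjusted p 0.10, 0.052 and 0.081) in WT cells, and without KO day 0 replicate 1 or 2 or KO day 4 replicate 1 (0.067, 0.074 and 0.056) in KO cells. *Hes6* in WT cells passed without KO day 0 replicate 1 (0.042) or 3 (0.033).

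No family member was called between genotypes in limma, and 1 of the 3 tested, *Hes6* at day 0, had an unadjusted p below 0.05 (0.040), as did 1785 of all 12257 genes at day 0. *Hes1* was lower in KO than in WT cells by 0.59 at day 4 (SE 0.29, limma adjusted p 0.44), where the 3 KO values lay below the 3 WT values, and by 0.40 at day 0 (SE 0.29, limma adjusted p 0.56), where they overlapped. The day 4 separation was not counted over all genes and is not read as support. *Hes6* was lower in KO cells by 0.69 at day 0 (SE 0.30, limma adjusted p 0.32) and by 0.11 at day 4 (SE 0.30, limma adjusted p 0.93). *Hey1* differed by -0.01 at day 0 and 0.03 at day 4 (SE 0.22 each). In all, 21 genes (0.171%) were called at day 0, 5 higher and 16 lower in KO cells (7 and 13 after quantile normalization), and 9 (0.0734%) at day 4, so few genes of any kind passed. For the interaction of genotype and day limma called 0 genes, with 537 at an unadjusted p below 0.05. Of the 29 Notch pathway genes, 27 were tested, and 5 were called higher and 0 lower at day 4 in WT cells (15.5% and 10.3% of all genes), 4 higher and 2 lower in KO cells (11.8% and 7.56%), and 0 between genotypes on either day in limma, with 1 at an unadjusted p below 0.05 at day 0 and 6 at day 4. Of all 12257 genes, 1785 had such an unadjusted p at day 0 and 1483 at day 4.

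The remaining family members were too low for the test, and *Hes5* and *Hes3* differed sharply between replicates. At day 4 the WT samples held 12.4, 0 and 1.54 FPKM of *Hes5* and 9.07, 0 and 0.307 FPKM of *Hes3*, while the KO samples held 0.244, 0.0963 and 0.162 FPKM of *Hes5* and 0.311, 0.581 and 0.335 FPKM of *Hes3*. WT replicate 1 was thus high for both genes and WT replicate 2 was listed at 0 for both, below every KO sample at day 4. Of 5 neural progenitor markers, none at 0 in the day 4 samples, the summed level was 246, 188 and 148 FPKM in WT replicates 1 to 3 and 98.0, 183 and 147 FPKM in KO replicates 1 to 3, so that WT replicate 1 was highest. Among them, *Sox1* read 47.2, 7.81 and 11.6 FPKM and *Pax6* 26.8, 3.71 and 6.77 FPKM in the WT replicates, whereas KO samples held 0.990 to 7.08 FPKM of *Sox1* and 0.228 to 2.37 of *Pax6*. *Nes*, another of the 5, was highest in replicate 3 instead, at 5.28, 2.68 and 9.14 FPKM in WT cells and 8.19, 2.31 and 10.2 FPKM in KO cells. The summed level at day 0 was already 123 to 136 FPKM in WT and 157 to 164 FPKM in KO cells, so the KO sums overlapped between days. The part of these markers in the *Hes5* and *Hes3* values was not tested. With no filter on low values, the limma difference between genotypes at day 4 was -1.48 for *Hes5* (SE 0.69, adjusted p 0.48) and -0.75 for *Hes3* (SE 0.67, adjusted p 0.73). *Hes7* reached at most 0.776 FPKM, *Hey2* 0.445 and *Heyl* 0.0554 in any E14 sample. The gene *Snord22* took 23.1 to 28.5% of all FPKM in 3 of the day 4 samples, WT replicates 1 and 2 and KO replicate 2, and its part in the values was not tested.

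**Figure D3:**
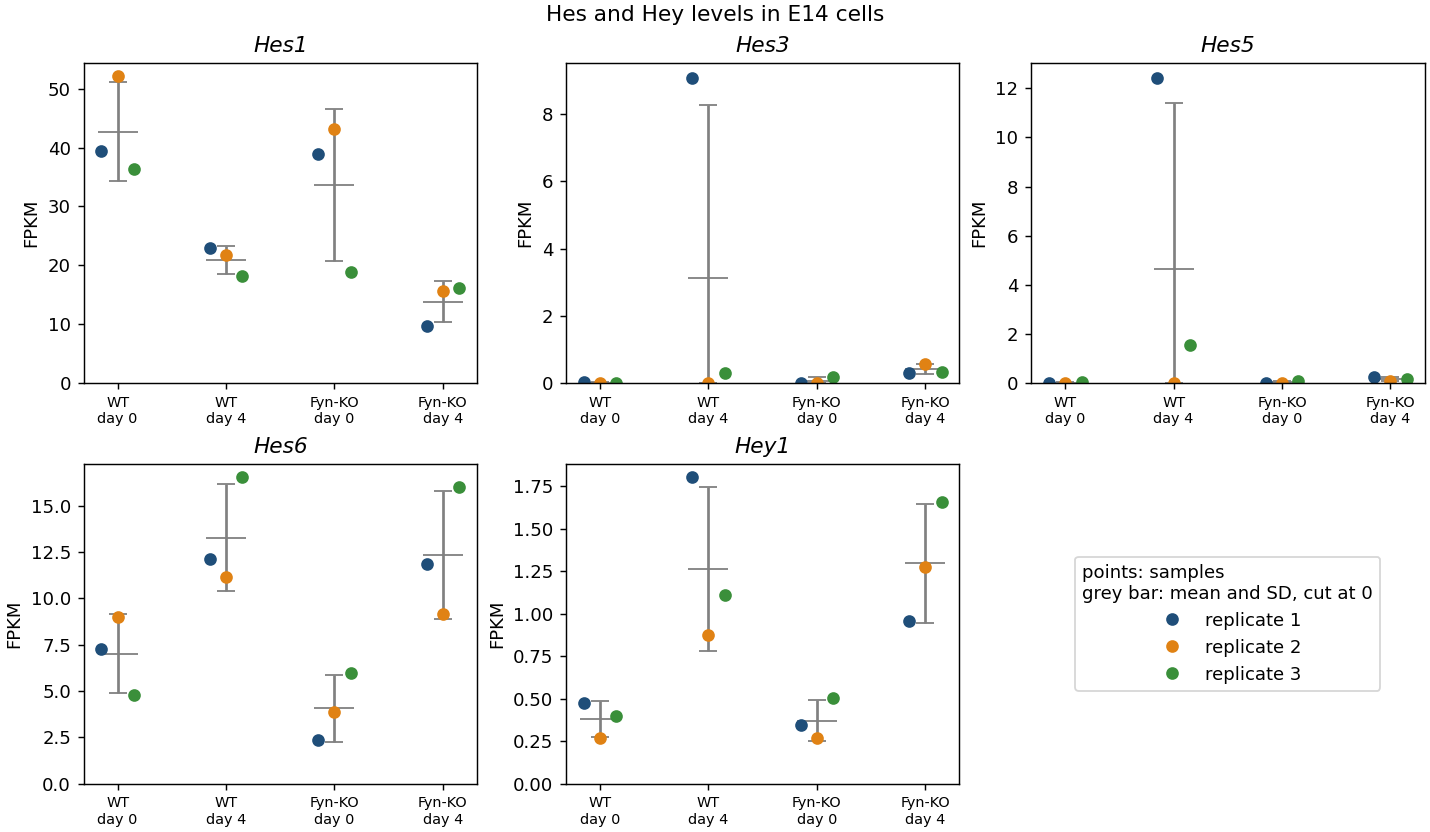
FPKM of 5 Hes and Hey genes in E14 cells by genotype and day, with 1 point per sample coloured by replicate and the mean with its SD in grey (n = 3, cut at 0). *Hes1* is lower and *Hes6* higher at day 4 in both genotypes, and the *Hes5* and *Hes3* means of WT cells at day 4 rest on replicate 1 (12.4 and 9.07 FPKM).

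Single cells, given as log10(RPKM + 1), showed each gene in a different share of cells. A cell was counted as positive above 0.5 RPKM, and every gene in the deposited cell table had to be positive in at least 8 of the 64 cells, a limit that *Hes1* met exactly. *Hes6* was positive in 53 of 64 cells, *Hey1* in 20, *Hes5* in 17 and *Hes1* in 8 (12.5%, exact binomial 95% interval 5.55 to 23.2%). Cells had 5648 to 10437 genes above 0. The cells of a time point come from 1 culture, so they are no replicates, no test was made, and the intervals cover counting error only.

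*Hes5* was found mainly at the last 2 time points. At 144 h 6 of 8 cells were positive and at 216 h 7 of 8, with medians of 1.22 and 1.14 and highest cells of 2.34 and 2.26, while at the 6 earlier times 0 or 1 of 8 cells was positive and no cell exceeded 0.344. At 0 h all 8 cells were at 0. *Hey1* was positive in most cells late as well, with 6 of 8 positive cells at 144 h and 8 of 8 at 216 h, where the cells ranged from 0.406 to 3.06 around a median of 1.33. Before that, 0 to 2 of 8 cells were positive at each time, but 1 cell at 0 h held 1.77, above both late medians, and 1 at 84 h held 0.862.

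In the 16 late cells *Hes5* and *Hey1* were each positive in most cells. *Hes5* and *Hey1* were both positive in 13 cells, *Hey1* without *Hes5* in 1 and neither in 2, and no late cell had *Hes5* without *Hey1*. In the 48 earlier cells both were positive in 2, *Hes5* without *Hey1* in 2 and *Hey1* without *Hes5* in 4. *Hes6* was positive in all 16, and *Hes1* in 2. Both cells at 144 h without *Hes5* and *Hey1* still held *Hes6* at 1.41 and 3.01. They had 6071 and 5648 genes above 0, the fewest of all 64 cells, while another 144 h cell with 6073 was positive for both. The part of detection in these values was not tested. The 1 cell at 216 h without *Hes5* had the highest *Pou5f1* (1.94) and the lowest *Nes* (0.0689) of its time point, with *Hey1* at 0.958. Its *Hes6* value of 0.661 was the lowest of the 16.

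*Hes6* was found at all times and spread widely between cells. It was positive in 4 of 8 cells at 0 h and in 8 of 8 at 9, 144 and 216 h, and its median was 0.175 at 0 h, 1.97 at 38 h, 0.432 at 60 h and 2.15 at 144 h. The highest cells reached 3.88 at 144 h and 3.94 at 216 h, and the lowest in those groups were 1.41 and 0.661. At 38 h the cells fell far apart, with 6 of 8 positive and 1 at 0.

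*Hes1* went against its population level. The CP populations held 5.78 to 28.4 FPKM of *Hes1* with a mean of 18.2, yet 0 of 8 cells were positive at 0, 38, 84 and 144 h, 1 at 9 h, 2 at 60 and 216 h and 3 at 106 h, and only 2 of 64 cells were above 5 RPKM. With 0 of 8 cells, the exact binomial 95% interval of the share reaches 36.9%. Of 1539 genes with a mean CP population level within 1.25-fold of that of *Hes1*, the median gene was positive in 33 cells and 41 were positive in no more cells than *Hes1*, and 18 further genes of that level were not in the cell table. By the same count *Hes5*, with a mean of 9.73 FPKM, was positive in 17 cells against a median of 20, *Hes6* (22.9 FPKM) in 53 against 39, and *Hey1* (5.70 FPKM) in 20 against 12. The mean RPKM of the 8 cells lay off the population in either direction, depending on the gene and the time. For *Hes1* it was below the population at all 8 times, for instance 0 against 24.2 FPKM at 144 h and 0.796 against 23.7 FPKM at 216 h. For *Hes5* it was 0.0952 against 4.94 FPKM at 106 h, 42.6 against 29.6 at 144 h and 33.2 against 39.1 at 216 h. For *Hey1* it was 0.0196 against 1.52 FPKM at 60 h and 206 against 24.0 at 216 h. For *Hes6* it was far above the population late, at 1175 against 30.3 FPKM at 144 h and 1949 against 53.8 at 216 h. The cell values were quantile normalized and the population values were not, so the 2 scales are set side by side only roughly.

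**Figure D4:**
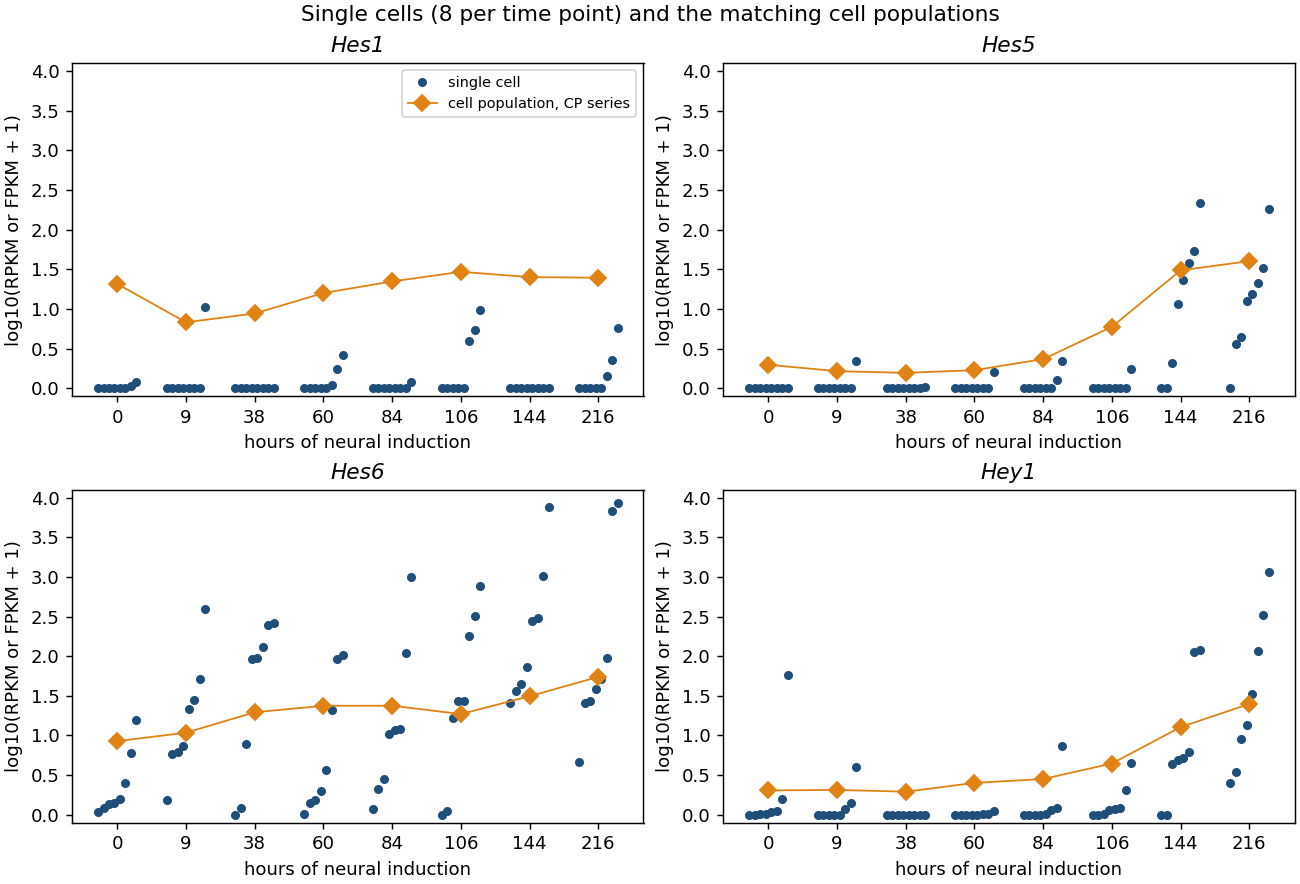
Single-cell values as log10(RPKM + 1) (points, 8 cells per time point sorted by value) and the CP cell population of the same hour as log10(FPKM + 1) (diamonds) for 4 genes, against hours of neural induction. *Hes5* and *Hey1* exceed 0.5 RPKM in most cells only at 144 and 216 h, *Hes5* while its population stood at 4.94 FPKM already at 106 h, *Hes6* is found at all times, and most *Hes1* points lie at 0 below a population level of 5.78 to 28.4 FPKM.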

How the data were processed

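The authors obtained single-end reads on an Illumina HiSeq2000, mapped them with Tophat and computed expression with Cufflinks. The submitters' processing notes name TopHat2 2.0.8b and Cufflinks 2.1.1 and the builds mm9 and mm10. The values of the SFEB populations were deposited as FPKM after ComBat batch correction by the authors, with batches that the sources used here do not name and 1256 values below 0, which were set to 0 (none of them in the Hes and Hey genes). The adherent and E14 values were deposited by the authors as FPKM with no further step stated. The single-cell values were deposited as log10(RPKM + 1) after the authors quantile normalized the cells and kept genes above 0.5 RPKM in at least 8 cells. Read depth cannot be taken from these units, so no counting floor is given. The genes and lists were chosen with earlier results of these data known. Genes with at least 1 FPKM in at least 3 samples of a table were tested with limma 3.58.1 (R 4.3.3) on log2(FPKM + 1) with a trended variance and Benjamini-Hochberg adjustment over all genes tested, called at an adjusted p below 0.05. A fold on this scale understates the change of low genes. E14 samples entered 1 model with 4 groups. The labels do not say whether replicates are separate cultures, so p-values measure the spread between these samples, which may be technical. Same-numbered E14 replicates deviated together between WT days (r 0.199 to 0.224) and between genotypes at day 4 (r 0.136 to 0.258), and not throughout in the other pairs of groups. The main E14 model held no replicate term, so its SEs and p-values are unpaired. The replicate block alternative added such a term over all 4 groups. SFEB and adherent courses were fitted with a natural spline of 3 degrees of freedom, with a series term in SFEB. Direction is the mean at 100 h or later minus that at 10 h or earlier. Single samples were compared by the number of genes at least 2-fold apart on FPKM + 1. The procedure was checked on simulated data. The named genes are the 8 family members, listed pathway and marker genes that touch a result, and the 3 most alike genes of each member that reaches 5 FPKM in SFEB culture. Promoters were matched for 4 of the 8 genes in 5 windows. Alternatives changed the pseudocount, filter, normalization, variance trend, curve, series, pairing and samples.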

Additional observations from a re-analysis of the deposited data

Results flagged for a closer look

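In 13 of 28 groups of 8 single cells with any value above 0, 1 cell stood apart from the other 7 by Dixon's test (95% level). Chance flags about 1 in 20 groups of normally spread values, and each of these groups had a median at or near 0. For *Hey1* the lone cell held 1.77 on the log10(RPKM + 1) scale at 0 h, where the next cell held 0.197, and at 9, 60 and 84 h the lone cells held 0.600, 0.0511 and 0.862. For *Hes1* the lone cell held 1.02 at 9 h against 0.0079 in the next, and at 0, 84 and 216 h the lone cells held 0.0821, 0.0817 and 0.755. The 0 h cell high in *Hey1* was also the highest of its group in *Hes1*, both in cell 12, and the 84 h cell high in *Hey1* was the highest in *Hes1*, both in cell 3. For *Hes5* the lone cells before the late rise held 0.340 at 9 h, 0.0116 at 38 h, 0.201 at 60 h, 0.344 at 84 h and 0.246 at 106 h, all of them far below the late medians of 1.22 and 1.14. No *Hes6* group was among them.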

How the results depend on the processing

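In SFEB and adherent culture *Hes3*, *Hes6* and *Hey1* were called and higher late under every alternative run. *Hes5* was higher late under each as well, but its calls are not counted, since it met the expression limit mainly through later samples. *Hes1* in SFEB culture reversed to -0.39 in the first series alone and was not called with a straight line in time (adjusted p 0.28). Without the 144 h sample, all 5 genes stayed higher late in adherent culture, and those other than *Hes5* stayed called. This alternative was chosen after seeing the data, as were leaving out the 1 h and 2 h samples and rescaling the 2 h comparison. In E14 cells *Hes1* in KO cells (adjusted p 0.057) was not called with only the groups compared in the model, where *Hes6* in WT cells was (0.046). A pseudocount of 0.1 raised *Hes3* in SFEB culture to 3.46 and *Hey1* in WT and KO cells to 1.47 and 1.57. No alternative called a family member between genotypes. The 21 genes called between genotypes at day 0 became 35 with no filter, 38 with the replicate block and 2 with only the groups compared. The 9 at day 4 became 24 with no filter, 17 after quantile normalization and 0 with only the groups compared, where 1330 had an unadjusted p below 0.05. The 0 of the interaction became 1 with no filter and 2 with the replicate block. Leaving out 1 replicate gave 1831 to 3528 calls between WT days, 1041 to 3063 between KO days, 4 to 128 between genotypes at day 0 (128 without WT day 0 replicate 1), 5 to 14 at day 4 and 0 to 4 for the interaction. The replicate block gave 3563 calls between WT days, 2779 between KO days and 10 between genotypes at day 4, and changed no call of a family member. In adherent culture quantile normalization moved the median late minus early difference over all genes from 0.13 to -0.01. Positive cells numbered 2 for *Hes1*, 10 for *Hes5*, 43 for *Hes6* and 11 for *Hey1* above 5 RPKM, and 14, 20, 62 and 36 above 0. The causes of these shifts were not tested. The deposited units hold no read counts, so no limit is given for values near 0.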
